A study of Rattus norvegicus with 24 samples.

Results

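A set of 8 genes that move sodium, chloride, protons and potassium across epithelial membranes was examined in the lungs of hexanal-exposed rats. They were Scnn1a, Scnn1b and Scnn1g, the alpha, beta and gamma subunits of the epithelial sodium channel (ENaC), Atp1b1, the beta-1 subunit of the sodium pump, Slc9a2 and Slc9b2, 2 sodium/proton exchangers, Cftr, the cystic fibrosis chloride channel, and Asic2, an acid-sensing sodium channel. All 8 of the 15443 genes that carried a symbol on the array were found by matching probe accessions to these symbols, through 10 probes, since Cftr and Slc9b2 had a pair of probes each. Slc9a2, Slc9b2 and Asic2 had been picked by the study, in part for expression that differed with exposure in these same samples. Their differences from control are therefore given as a description. Slc9b2 also enters the counts of calls and the fits over dose, but no test of it is taken as evidence of a change.

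Fischer-344 rats of both sexes, 7-8 weeks old, breathed filtered clean air (control group) or hexanal, a volatile aldehyde, at 600 ppm (low-dose group), 1000 ppm (middle-dose group) or 1500 ppm (high-dose group) for 4 h per day on 5 days per week. The labels state 5 weeks of exposure and the study's text 4 weeks, and one field of the labels gives the concentrations in mg/m3 in place of ppm. Each group held 6 rats, 3 males and 3 females, with 1 single-colour array of total lung RNA per rat. Nothing separates rats from cage or chamber, so p-values measure the spread between these rats.

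In the lung, ENaC in the apical membrane lets sodium into alveolar and airway cells, and the sodium pump in the basolateral membrane drives it out again. Water follows the sodium, and this absorption keeps the alveoli dry and sets the depth of the airway liquid. Cftr passes chloride and bicarbonate, sodium/proton exchangers regulate pH and cell volume, and acid-sensing channels open when the outside turns acid. In pieces of whole lung, fewer cells of a type and less RNA per cell cannot be told apart.

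Levels are the log2 processed signal of a probe minus the 75th percentile of its array, so that 0 is the 75th percentile; levels of different probes are not compared with each other. The 75th percentile lay between 1701 and 3130 signal units, and 70.7% to 81.9% of probes stood well above background. Alveolar type II markers (7 of 7 on the array) and club cell markers (4 of 4) were well above background on all 24 arrays, as were 5 of 6 type I markers; Rtkn2 was not. The arrays came on 6 slides of 4, each with 1 sex, which means that slide and sex cannot be told apart. Control and 600 ppm rats shared slides 1 and 4, 600 and 1000 ppm rats slides 2 and 5, and 1000 and 1500 ppm rats slides 3 and 6, whereas control and 1500 ppm rats shared none. The summed level of 8 heart muscle markers spread widely, from 1.78 to 5.18 in control, 2.35 to 5.92 at 600 ppm, 3.09 to 6.97 at 1000 ppm and 1.82 to 6.99 at 1500 ppm.

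Scnn1g and Scnn1b lie next to each other on rat chromosome 1, on the same strand and with no other annotated gene between them. The 250 bases before the start of each gene are shown because these neighbours encode subunits of 1 channel and their levels are compared across rats further on. They were read from RefSeq's promoter table (GRCr8), which listed 5 of the 8 members. Capitals mark the GC box (GGGCGG, or CCGCCC on the other strand).

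Scnn1g, chr1:185735975-185736224, plus strand: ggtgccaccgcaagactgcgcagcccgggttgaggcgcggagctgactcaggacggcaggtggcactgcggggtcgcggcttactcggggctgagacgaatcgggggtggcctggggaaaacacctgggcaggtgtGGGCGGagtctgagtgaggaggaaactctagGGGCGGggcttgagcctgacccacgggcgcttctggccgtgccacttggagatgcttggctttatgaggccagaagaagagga

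Scnn1b, chr1:185861126-185861375, plus strand: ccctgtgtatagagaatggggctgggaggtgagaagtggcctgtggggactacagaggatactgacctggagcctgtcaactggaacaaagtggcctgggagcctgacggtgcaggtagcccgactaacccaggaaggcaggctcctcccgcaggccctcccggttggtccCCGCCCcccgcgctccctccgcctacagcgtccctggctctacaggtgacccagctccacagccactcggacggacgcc

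The Scnn1g window held 2 GC boxes and 17 CpG dinucleotides, and the Scnn1b window 1 GC box and 12 CpG dinucleotides. Both were 65.6% G or C, against a median of 51.2% and 5 CpG dinucleotides over 33469 windows of the same length. Of all windows, 30.5% held a GC box. Neither window held the half-site bound by glucocorticoid and mineralocorticoid receptors (AGAACA or its complement TGTTCT), found in 17.5% of all windows, the letters TATAAA (12.9%) or the letters CCAAT (34%), each searched on both strands.

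Of the 6 members that passed the filter on dim probes, none was called (at least 1.5-fold with an unadjusted limma p under 0.05) at 600 ppm against control, where 0.607% of all genes tested were, and none at 1000 ppm, where 1.63% were. At 1500 ppm 1 was called, Slc9b2, beside 1.23% of all genes. As Slc9b2 had been picked with expression in these samples against control in view, at a dose not stated, nothing is read from that count. The other 5, the 3 ENaC subunits, Atp1b1 and Cftr, were not called at any dose against control, and none of the 6 had a linear trend over dose at an adjusted limma p under 0.05 (0.0141% of all genes had).

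Scnn1a, the pore subunit that ENaC needs to reach the membrane, was the sodium channel subunit whose level differed most between exposed groups. In control its levels were 1.14, 1.17 and 1.47 in males and 0.85, 0.79 and 1.25 in females. At 600 ppm they were 1.60, 1.63 and 1.46 in males and 1.71, 1.48 and 1.40 in females. These 6 rats lay close together, and 4 of them lay above every control rat. At 1000 ppm the levels were 1.59, 1.45 and 1.33 in males and 0.70, 1.47 and 1.55 in females. Of these, 5 lay between 1.33 and 1.59, and female rat 31 lay below every control rat. At 1500 ppm they were 1.16, 1.23 and 1.13 in males and 0.77, 0.90 and 0.61 in females, and all 6 lay below every 600 ppm rat.

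**Figure D1:**
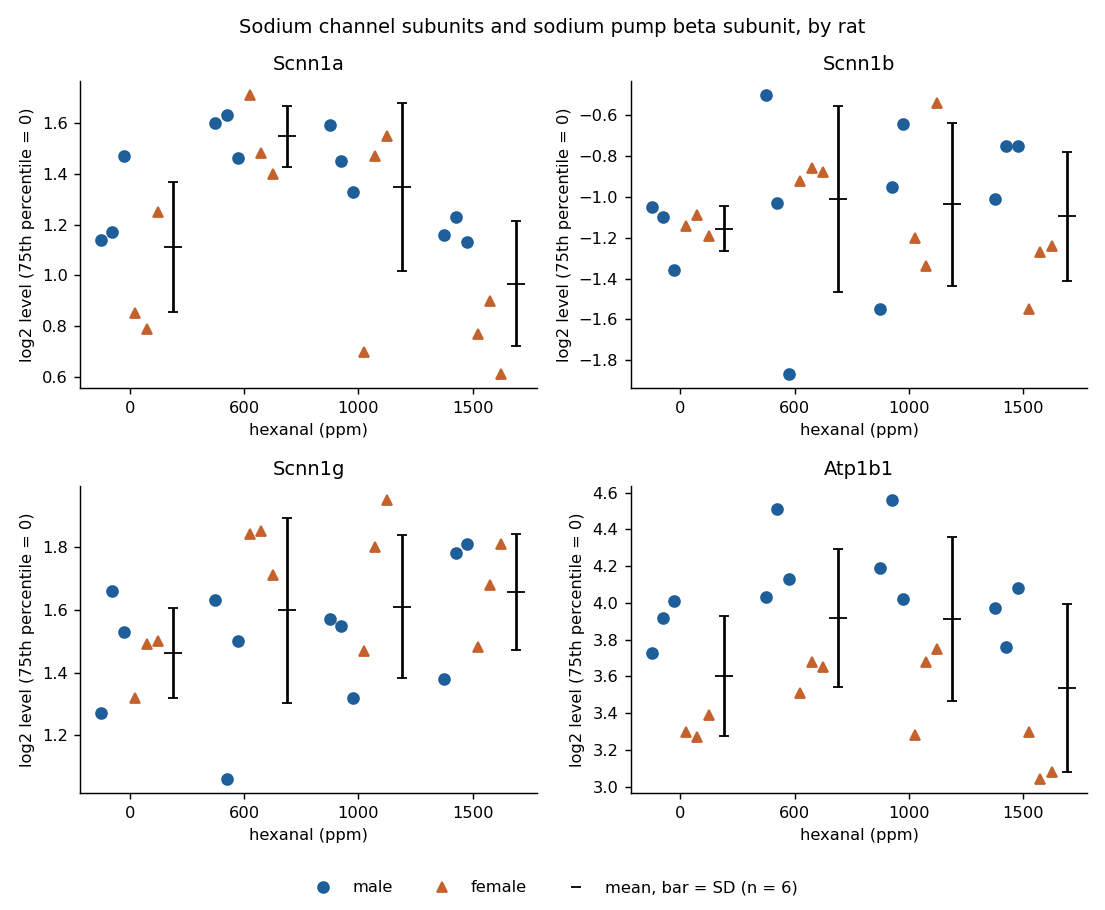
Log2 level (75th percentile of the array = 0) of Scnn1a, Scnn1b, Scnn1g and Atp1b1 in each rat against hexanal concentration in ppm; circles are males, triangles are females, and black bars are the mean ± SD of 6 rats. Scnn1a at 1500 ppm lay wholly below 600 ppm, and Atp1b1 was higher in males than in females at each concentration.

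The mean level of Scnn1a was 1.11 ± 0.25 (SD, n = 6) in control, 1.55 ± 0.12 at 600 ppm, 1.35 ± 0.33 at 1000 ppm and 0.97 ± 0.25 at 1500 ppm. Between 600 ppm and control the log2 difference was 0.43 (SE 0.14), a 1.35-fold higher level. By limma its unadjusted p was 0.00536 and its adjusted p over 21259 genes 0.996, and an exact two-sided permutation test of 6 rats against 6 gave p = 0.00649. It did not reach 1.5-fold, the threshold for a call, and is not a change by that rule. At 1000 ppm and 1500 ppm the log2 differences from control were 0.24 (95% confidence interval -0.05 to 0.53) and -0.15 (-0.44 to 0.15).

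From 600 to 1500 ppm the level of Scnn1a was lower by a log2 difference of -0.58 (SE 0.14, 95% confidence interval -0.87 to -0.29). This 1.495-fold difference stopped just short of the call, with an unadjusted limma p of 0.000436 and an adjusted p of 0.196. The exact permutation test gave p = 0.00216, the smallest that 6 rats against 6 allow, and 0.306% of all genes tested were likewise lower in all 6 high-dose rats than in all 6 low-dose rats. With sex as a covariate, a fit chosen after the values had been seen, the log2 difference stayed at -0.58 (SE 0.12). Its adjusted limma p was 0.0444, and 75 genes (0.353%) had an adjusted p under 0.05 in that fit. No call is read from it, as the main fit gave 0.196. No slide held both doses. With slide as a fixed block the log2 difference was -0.66 (SE 0.25, adjusted p 0.595). Among arrays of 1 slide, 600 ppm exceeded control by 0.34 in males (slide 1) and 0.75 in females (slide 4), and 1500 ppm differed from 1000 ppm by -0.16 in males (slide 3) and -0.79 in females (slide 6). Of 7 alveolar type II markers measured, 6 were lower at 1500 ppm than at 600 ppm (median log2 difference -0.10), as were 3 of 5 type I markers (median -0.06) and 3 of 3 endothelial markers (median -0.19), beside 0.02 over all genes, and none of these was called. Of 4 leukocyte markers 3 were higher (median 0.34) and 1, the T cell gene Cd3e, was called higher (0.61, SE 0.25), and of 6 immediate early genes 5 were lower (median -0.54) and 1, Fos, was called lower (-1.62, SE 0.68). The summed level of type II markers was 9.07 to 9.27 at 600 ppm and 8.91 to 9.25 at 1500 ppm, and that of type I markers 7.36 to 7.68 and 7.15 to 7.68. The part of these cells and genes in the Scnn1a difference was not tested.

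Scnn1b and Scnn1g, the subunits that raise the current of ENaC, showed no change by the call rule at any dose. Scnn1b ranged from -1.36 to -1.05 in control (median -1.12), from -1.87 to -0.50 at 600 ppm (median -0.90), from -1.55 to -0.54 at 1000 ppm (median -1.07) and from -1.55 to -0.75 at 1500 ppm (median -1.12). The groups overlapped, and the 3 exposed groups were wider than control, with an SD of 0.46, 0.40 and 0.32 against 0.11. Its log2 differences from control were 0.14, 0.12 and 0.06 in order of dose (SE 0.19 each), and the 95% confidence intervals together ran from -0.34 to 0.54. Scnn1g ranged from 1.27 to 1.66 in control, from 1.06 to 1.85 at 600 ppm, from 1.32 to 1.95 at 1000 ppm and from 1.38 to 1.81 at 1500 ppm. Its log2 differences were 0.14, 0.15 and 0.20 (SE 0.13 each), and the largest, at 1500 ppm, had a 95% confidence interval of -0.06 to 0.46 and an exact permutation p of 0.0693. With slide as a fixed block the log2 difference of Scnn1b at 600 ppm was 0.44 (SE 0.21), and leaving out 1 rat moved it between 0.04 and 0.31, the latter without male rat 8. The probes of Scnn1a and Scnn1g were each printed 10 times per array, and the median SD over these spots was 0.05 and 0.04 on the log2 scale, below the SD of 0.12 to 0.33 between rats of a group for either gene.

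Atp1b1, which folds the sodium pump and brings it to the membrane, was not called at any dose and differed between the sexes. In control its levels were 3.73, 3.92 and 4.01 in males and 3.30, 3.27 and 3.39 in females. At 600 ppm they were 4.03, 4.51 and 4.13 in males and 3.51, 3.68 and 3.65 in females. At 1000 ppm they were 4.19, 4.56 and 4.02 in males and 3.28, 3.68 and 3.75 in females, and at 1500 ppm 3.97, 3.76 and 4.08 in males and 3.30, 3.04 and 3.08 in females. In each of the 4 groups every male exceeded every female. Over both sexes the log2 differences from control were 0.31, 0.31 and -0.06 (SE 0.22 each, 95% confidence intervals within -0.53 and 0.78), and none was called. That fit left out sex, so its SE also holds the spread between the sexes. With the sexes fitted apart the log2 differences were 0.33, 0.37 and 0.05 in males and 0.29, 0.25 and -0.18 in females (SE 0.15 each, lowest adjusted limma p 0.345). Unadjusted limma p at 600 and 1000 ppm was 0.0406 and 0.0252 in males, and 0.0676 and 0.113 in females.

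The difference between the sexes was fitted over all 24 rats with dose as a covariate, a contrast chosen after the values had been seen. Atp1b1 was higher in males by a log2 difference of 0.66 (SE 0.07, 95% confidence interval 0.51 to 0.82), 1.58-fold, with an adjusted limma p of 4.43e-06. In the control group alone, females minus males gave -0.57 (SE 0.15, adjusted limma p 0.0336), in a comparison where 6.31% of all genes had an adjusted p under 0.05. Many genes differed in the same way: 24.8% of all genes tested had an adjusted p under 0.05 in the pooled contrast, and 3.38% also reached 1.5-fold. Because each slide held 1 sex, the 3 male slides against the 3 female slides give an exact permutation p of 0.1 for Atp1b1, the smallest that design allows. Summed alveolar type I markers lay between 7.34 and 7.68 in males and 7.15 and 7.56 in females, and summed endothelial markers between 4.71 and 5.24 and 4.42 and 5.05; their part in the difference was not tested. Scnn1a was also higher in males, by 0.24 (SE 0.09, adjusted limma p 0.0478), a call that was lost when any of 18 of the 24 rats was left out. The remaining 4 members in the fit had adjusted p-values of 0.0793 (Cftr, 0.20 higher in males) to 0.798 (Scnn1b).

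No interaction of sex and dose passed an adjusted limma p of 0.05 for the 6 members. Across their 18 interaction terms the lowest adjusted p was 0.452, whereas 0%, 0% and 4.97% of all genes tested passed at 600, 1000 and 1500 ppm. The widest of these interactions was Scnn1b at 1500 ppm, females minus males -0.55 (SE 0.38).

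Levels of 4 genes, the 3 ENaC subunits and Atp1b1, were correlated over the 24 rats in 6 pairs, with Benjamini-Hochberg adjustment over the 6. Scnn1a and Atp1b1 rose and fell together: within females, Pearson's r was 0.86 and Spearman's rho 0.78 (n = 12, permutation p = 0.00104, adjusted p = 0.00624), and within males r was 0.64 and rho 0.58 (n = 12, permutation p = 0.0225, adjusted p = 0.135). Without the 2 rats farthest from the median of Scnn1a in each sex, r was 0.88 and 0.63. Within a sex neither dose nor slide was removed, so r also holds differences between dose groups, and no pass is read from these p-values. In females the mean of Scnn1a was 0.96 in control and 1.53, 1.24 and 0.76 in order of dose. That of Atp1b1 was 3.32 in control and 3.61, 3.57 and 3.14. The sexes stand apart in Atp1b1, and after centring on dose group and slide r over the 24 rats was 0.60 (permutation p = 0.00181, adjusted p = 0.0109). The permutation took the 24 centred levels as independent, though centring ties them to each other, so these p-values are too small. Uncentred, r was 0.70 (rho 0.59, adjusted p = 0.00126), and 0.62 without the 2 rats farthest from the median.

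**Figure D2:**
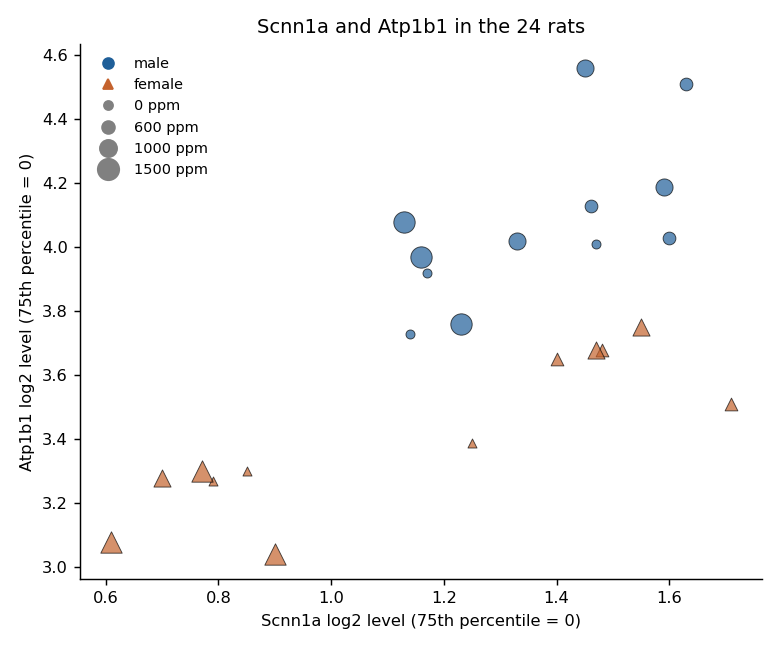
Log2 level of Atp1b1 against that of Scnn1a (75th percentile of the array = 0), 1 point per rat; circles are males, triangles are females, and larger points stand for a higher hexanal concentration in ppm. The males lie above the females in Atp1b1, and within females the points rise together (r = 0.86, n = 12, dose and slide not removed).

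Without centring, no pair of ENaC subunits passed the adjustment over the 24 rats. After centring on dose group and slide, 1 pair had an adjusted p under 0.05. As the permutation makes p too small after centring, no pass is read from it. For the neighbours Scnn1b and Scnn1g r was 0.23 and rho 0.27 (permutation p = 0.286, adjusted p = 0.429). For Scnn1a it was 0.24 with Scnn1b and 0.13 with Scnn1g (adjusted p = 0.429 and 0.547). After centring, r was 0.50 and rho 0.47 for Scnn1a and Scnn1g (n = 24, permutation p = 0.0128, adjusted p = 0.0383), 0.07 for Scnn1a and Scnn1b and 0.14 for Scnn1b and Scnn1g. Within females r was 0.63 for Scnn1a and Scnn1b and 0.65 for Scnn1a and Scnn1g (permutation p = 0.027 and 0.0256, adjusted p = 0.0455 each). Within males these pairs had r of -0.25 and -0.27 (adjusted p = 0.668 each). For Scnn1b and Scnn1g r was 0.54 within females (permutation p = 0.0685, adjusted p = 0.0822) and 0.12 within males (adjusted p = 0.718). Dose and slide were not removed within a sex, so no pass is read from these values either. The difference between the sexes in r was not tested.

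Cftr was measured by a bright and a dim probe. On the bright probe, levels ran from -0.70 to -0.40 in control (median -0.59), -0.58 to -0.02 at 600 ppm (median -0.53), -0.93 to -0.16 at 1000 ppm (median -0.61) and -0.79 to 0.02 at 1500 ppm (median -0.28). Of the high-dose rats, 5 of 6 lay above every control rat and female rat 37 lay below them all. The log2 difference at 1500 ppm was 0.26 (SE 0.13, 95% confidence interval -0.01 to 0.53), with a limma p of 0.0572 before and 0.733 after adjustment and an exact permutation p of 0.0476. At 600 and 1000 ppm it was 0.17 and 0.01. On the dim probe the differences were 0.37, -0.11 and 0.02 (SE 0.45 each), with 95% confidence intervals from -1.05 to 1.31. The ionocyte markers, from the rare airway cell rich in Cftr, had a summed level of 2.16 to 2.77 in control and 1.32 to 2.44 at 1500 ppm, a sum carried by the bright gene Atp6v1c2 (log2 difference -0.50, SE 0.18). Of the other 3, Foxi1 (0.31, SE 0.24) and Atp6v1b1 (0.28, SE 0.64) lay higher and Ascl3 (-0.26, SE 0.17) lower, and the median of the list was 0.01; 2 of the 4 markers were well above background on every array. Their part in the Cftr values was not tested.

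Slc9b2, a sodium/proton exchanger found on organelle membranes, was higher at 1500 ppm than in control on the brighter of its probes. There its levels in control were -6.20, -5.81 and -6.53 in males and -6.25, -5.45 and -5.60 in females. At 1500 ppm they were -4.73, -4.93 and -4.40 in males and -3.85, -4.65 and -4.69 in females, and every high-dose rat lay above every control rat, as for 0.325% of all genes. Since the gene had been picked with these samples in view, nothing is read from that share. Levels at the other doses follow. At 600 ppm levels ran from -6.95 to -4.23 and at 1000 ppm from -6.88 to -4.57, overlapping control and 1500 ppm, with rats 7 and 11 lowest and not well above background. The log2 differences from control were 0.63, 0.72 and 1.43 (SE 0.39 each), the last 2.70-fold, and the fitted slope was 0.90 per 1000 ppm (SE 0.24). At 1500 against 600 ppm the log2 difference was 0.81 (SE 0.39). Among arrays of 1 slide, the single 600 ppm rat differed from the control rats by 1.21 in males and -0.04 in females, and the 1500 ppm rats from the single 1000 ppm rat by 0.27 in males and 0.95 in females. Of 6 immediate early genes, which respond within minutes to stress and handling of tissue, 5 were lower at 1500 ppm than in control and 3 were called lower (median log2 difference -0.90); their part in the Slc9b2 values was not tested.

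The second probe of Slc9b2 did not show the same size. Its levels ran from -6.34 to -2.76 in control, with female rat 23 far above the others at -2.76, and from -5.26 to -4.22 at 1500 ppm. Its log2 differences were -0.25, -0.19 and 0.61 (SE 0.53 each), from a control mean that holds rat 23. Group medians on that probe were -5.80 in control and -5.57, -5.30 and -4.96 in order of dose. Both probes were dim: the brighter read 32.3 to 55.8 signal units in control and 92.6 to 139 at 1500 ppm, where the lowest signal well above background was 17 to 46 units depending on the array. With another background correction (normexp on median spot signals, with an offset of 50 units) the difference at 1500 ppm on the brighter probe was 0.38 (SE 0.42). An offset of this size narrows the log2 range of signals as dim as these. With slide as a fixed block the difference was 1.22 (SE 0.94).

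**Figure D3:**
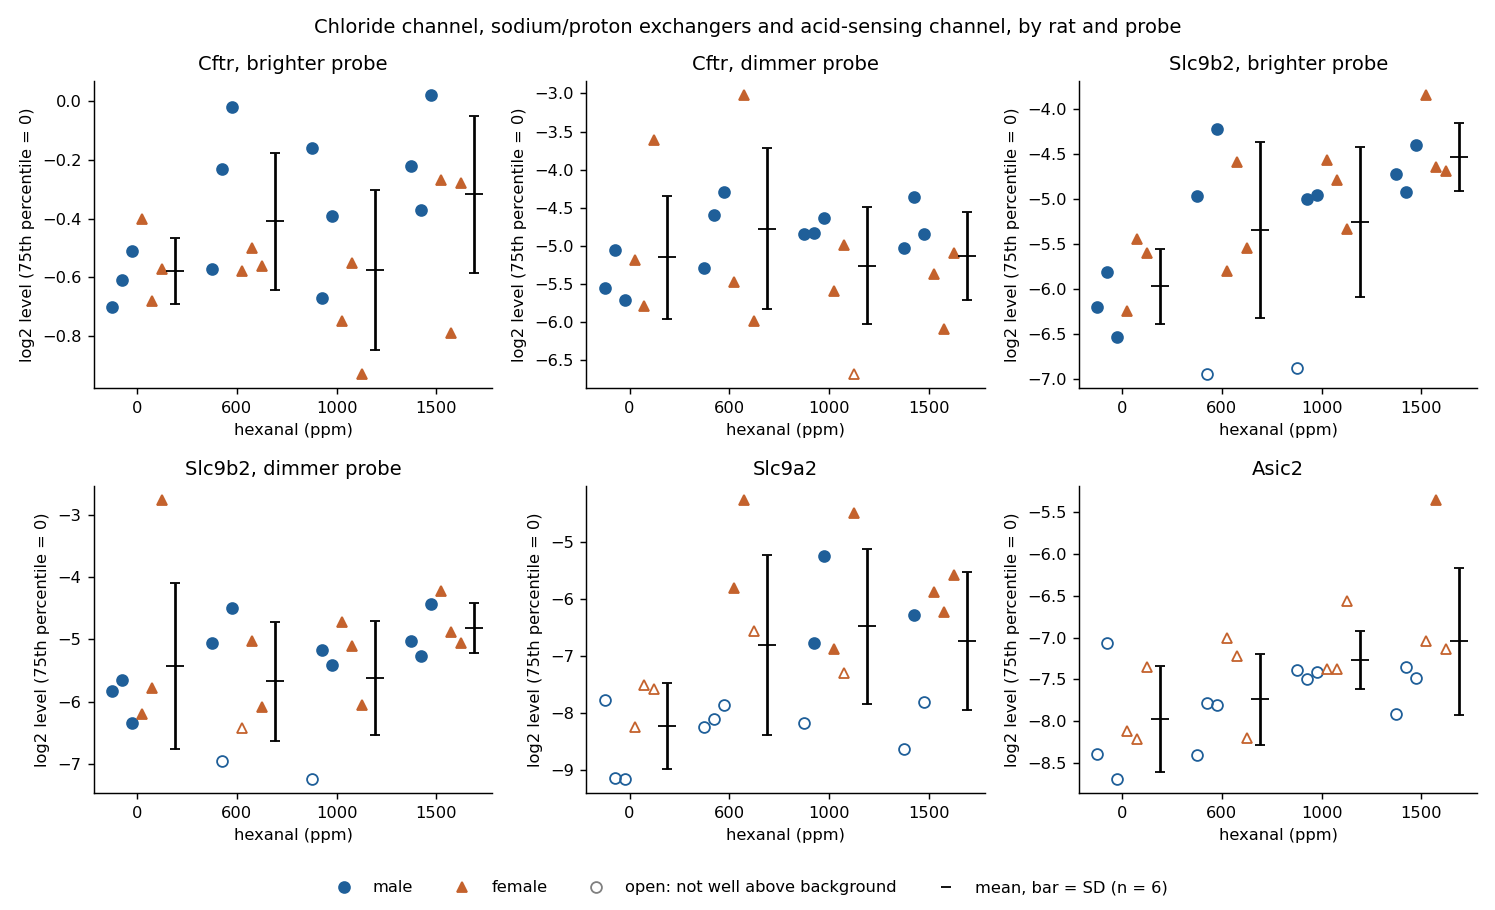
Log2 level (75th percentile of the array = 0) of both Cftr probes, both Slc9b2 probes, Slc9a2 and Asic2 in each rat against hexanal concentration in ppm; circles are males, triangles are females, open points were not well above background, and black bars are the mean ± SD of 6 rats. On the brighter Slc9b2 probe all 6 high-dose rats lie above the control rats, and most Slc9a2 and Asic2 points are open.

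Slc9a2, an apical exchanger of gut and airway epithelium, lay at the detection limit. Slc9a2 was well above background in 0 of 6 control rats, 2 of 6 at 600 ppm, 4 of 6 at 1000 ppm and 4 of 6 at 1500 ppm. These counts depend on the array. Female rat 28 at 600 ppm read 31.9 units and was not counted, as its array's lowest signal well above background was 37.5. Female rat 31 at 1000 ppm was counted at 23.2 units, where that limit was 18.2. Among exposed rats, 7 of 9 females and 3 of 9 males were well above background. The control levels ran from -9.16 to -7.50 (4.14 to 14.1 signal units), and the highest exposed levels were -4.26 in female rat 27 and -4.49 in female rat 33. Each control array was set at the higher of the probe's own signal and the dimmest signal still well above background. Against these, the middle-dose mean was 1.34-fold higher, the high-dose mean 1.13-fold and the low-dose mean 1.07-fold. Exposed rats not well above background entered at their own signal, so these folds are not lower bounds. A step from 0 control rats to 4 or more was seen for 0.079% of all 30367 probes at 1000 ppm and 0.0329% at 1500 ppm. As Slc9a2 had been picked with these samples in view, nothing is read from these shares. On the slides that held control and 600 ppm rats, 0 of 1 male and 1 of 1 female at 600 ppm were well above background. Among arrays of 1 slide, 600 ppm differed from control by 0.44 in males and 1.98 in females. From 600 to 1000 ppm the difference was 0.51 and -1.68, and from 1000 to 1500 ppm -2.32 and -1.4. Most of these levels were not well above background.

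Asic2 was well above background in 1 of 24 rats, female rat 37 at 1500 ppm (-5.36, 63.9 signal units). Its levels ran from -8.69 to -7.07 in control, -8.40 to -7.00 at 600 ppm, -7.49 to -6.57 at 1000 ppm and -7.91 to -5.36 at 1500 ppm. With 0 or 1 rat of a group measured, no fold is given. Slc9a2 and Asic2 did not pass the filter on dim probes and are in no count of calls except those made without a filter.

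**Figure D4:**
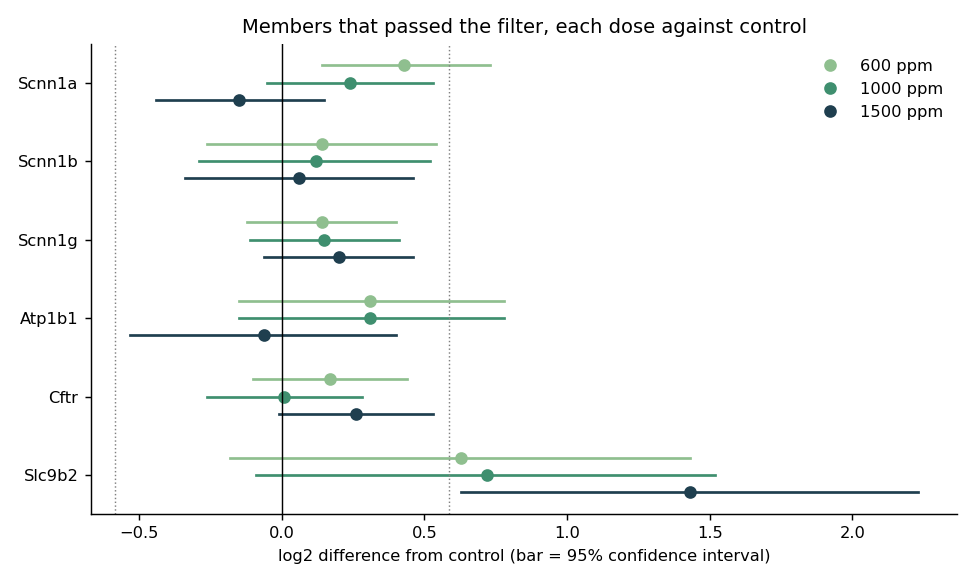
Log2 difference from control, with its 95% confidence interval, for the 6 members that passed the filter at 600, 1000 and 1500 ppm; dotted lines mark a 1.5-fold difference either way. The intervals of the 5 members that the study did not pick reach 0 except that of Scnn1a at 600 ppm (0.14 to 0.73), and those of Slc9b2, picked on these samples, are the widest. The fit left out sex, so the intervals of Atp1b1 also hold the spread between the sexes.

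Of 71 other genes of these pathways, 66 were on the array, 59 passed the filter and none was called against control at any dose. At an unadjusted limma p under 0.05, 1 was higher and 1 lower at 600 ppm (4.35% of all genes tested passed in either direction), 2 higher and 1 lower at 1000 ppm (8.98%), and 1 higher and 1 lower at 1500 ppm (6.95%). Their median log2 differences from control were -0.02, -0.02 and 0.05 in order of dose, beside 0.00, 0.01 and 0.01 over all genes. Among regulators of ENaC, 13 of 14 were measured. Sgk1, the kinase that keeps ENaC at the surface, had log2 differences of -0.07, -0.17 and -0.20 (SE 0.15 each). Nr3c2, the mineralocorticoid receptor, differed by -0.19 at 1500 ppm (SE 0.08, limma p 0.0293 unadjusted and 0.684 adjusted).

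Among the sodium pump genes, 11 of 13 were measured, and none had an unadjusted p under 0.05 against control. Their median log2 differences were 0.08, 0.07 and 0.07 in order of dose. Of the potassium channels that recycle potassium, Kcnq1 differed by 0.20 at 600 ppm and 0.16 at 1000 ppm (SE 0.07 each, adjusted limma p 0.996 and 0.516) and Kcnn4 by -0.34 at 600 ppm (SE 0.13, adjusted limma p 0.996), all under 1.5-fold. Nherf1, a scaffold for exchangers and Cftr, differed by 0.27 at 1000 ppm, the potassium-chloride cotransporter Slc12a4 by -0.18 at 1000 ppm, and the calcium-activated chloride channel Ano1 by 0.25 at 1500 ppm. Beside Nherf1, none of the sodium/proton exchange list (7 of 11 measured), of the acid-sensing channels (2 of 4) or of the water channels (4 of 4) had an unadjusted p under 0.05 against control. Of the chloride and bicarbonate list 15 of 16 were measured, and of the potassium channels 7 of 9.

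**Figure D5:**
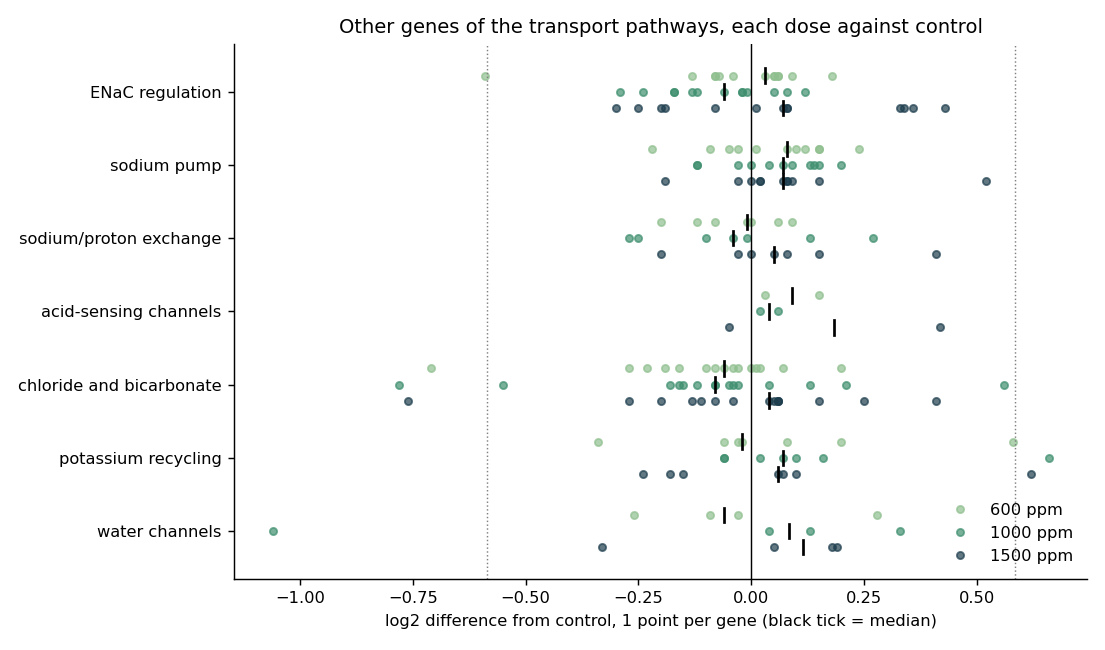
Log2 difference from control of the other pathway genes that passed the filter, 1 point per gene in 7 lists at 600, 1000 and 1500 ppm; black ticks are list medians and dotted lines mark 1.5-fold either way. List medians lie close to 0, and the points beyond the dotted lines did not pass the unadjusted p threshold.

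Between doses, 1 of the 59 was called. Hsd11b2, the enzyme that shields the mineralocorticoid receptor from corticosterone, was higher at 1500 ppm than at 600 ppm by a log2 difference of 1.02 (SE 0.29, limma p 0.00171 unadjusted and 0.311 adjusted), beside 1.16% of all genes called in that comparison (0.541% at 1500 against 1000 ppm and 0.644% at 1000 against 600 ppm). Its levels ran from -3.12 to -1.74 in control, -3.16 to -1.59 at 600 ppm, -3.02 to -1.68 at 1000 ppm and -2.18 to -1.18 at 1500 ppm. The groups at 600 and 1500 ppm overlapped. It was also called at 1500 against 1000 ppm (0.68, SE 0.29, adjusted limma p 0.898), where the log2 difference of Scnn1a was -0.39.

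For each of the 6 members the genes whose levels followed it most closely over the 24 rats were drawn from 11343 genes well above background on every array. These are descriptions, since the arrays share slides and sexes. Scnn1a was followed by Vamp8, a vesicle fusion protein (r = 0.84), Clic3, an intracellular chloride channel protein (0.83), and Sult1a1, a sulfotransferase (0.83). Scnn1b was followed by Rab11fip1, a factor of recycling endosomes (0.83), Ddost (0.77) and Cldn12, a claudin (0.74). Scnn1g was followed by Bdnf, a neurotrophin (0.82), Ahctf1 (0.72) and Vnn1 (0.71). Atp1b1 was followed by Sgsm3 (0.92), Lims2 (0.88) and Mab21l4 (0.88), and within slides these fell to 0.73, 0.72 and 0.72. Cftr was followed by Cd44, a hyaluronan receptor (0.78), Psmd2, a proteasome subunit (0.77), and Krcc1 (0.77). Slc9b2 was followed by Gulo, the last enzyme of vitamin C synthesis (0.75), Slc1a5, a glutamine transporter (0.71), and Islr (0.69). No gene was named for more than 1 member.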

How the data were processed

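Lung RNA of 24 rats was measured on 24 Agilent single-colour rat arrays. The authors' deposited intensities are background-subtracted and detrended processed signals of Feature Extraction 11.5.1.1, and the deposited series table equals them for 99.69% to 99.82% of probes per array to within 0.1%, without scaling between arrays. The array design names the rat build rn4; the normalization of mRNA values is not given in the sources used here. Spots of a probe were averaged (30367 probes), named by accession through RefSeq (GRCr8, names only), and scaled as log2 signal minus the 75th percentile. A probe was tested if 5 or 6 arrays of some group had it well above background. Each gene was represented by its brightest such probe, by the mean level over all 24 arrays. R 4.3.3 and limma 3.58.1 (lmFit, eBayes, all 24 arrays) were used, with Benjamini-Hochberg adjustment over 21259 genes or unnamed probes. A call needs 1.5-fold and an unadjusted p under 0.05, after the study. Exact permutation tests (30, for the 5 members the study did not pick) are unadjusted. The number of arrays limits the precision. Members and lists were chosen with earlier results of these data known. Named were all members, Sgk1, pathway genes called at any dose (none against control), and the 3 genes most like each member. Other pathway genes named had an unadjusted p under 0.05, against control or between the sexes, and were chosen after their values were seen. Aqp3 and Aqp4 did not, and were named beside the other water channels. Some genes that met these rules are not reported here. In simulated data for 1500 ppm against control, 94.5% of 200 genes changed 2-fold among 21259 were called in the right direction. The simulated noise was independent between rats, without effects of slide or sex, and no smaller change with dose was simulated. The share is therefore not the sensitivity of the real comparison. Alternatives were other background, scaling, filter, covariate, slide block, weights, probes and tests, and leaving out each rat.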

Additional observations from a re-analysis of the deposited data

Results flagged for a closer look

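In 40 sets of 6 rats (10 probes in 4 groups), 6 had 1 rat whose gap to its neighbour took more of the whole range than Dixon's 95% critical value; chance flags about 1 in 20 sets. Scnn1a was lowest in female rat 31 at 1000 ppm (gap share 0.71). In control, female rat 23 was highest on the dimmer probes of both Slc9b2 (0.807) and Cftr (0.661). Slc9b2 on its brighter probe was lowest in male rat 11 at 1000 ppm (0.666), where it was not well above background. Asic2 was highest in female rat 33 at 1000 ppm (0.864), not well above background, and in female rat 37 at 1500 ppm (0.659).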

How the results depend on the processing

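No paired analysis was possible because no rat number recurs between groups. Of 800 recomputed values, 730 kept their direction and their side of the threshold. Slc9b2 at 1500 ppm lost its call with normexp (0.38), with slide as a fixed block (1.22) and on its second probe (0.61), and was 1.29 to 1.54 with 1 rat left out. At 600 and 1000 ppm it turned to -0.07 and -0.23 with normexp and to -0.25 and -0.19 on the second probe; at 1000 ppm it was called without scaling (0.82), and without rat 7 it was 0.95 at 600 ppm. On the second probe the control mean holds female rat 23 at -2.76, and leaving out 1 rat was done on the brighter probe only. The cause of these shifts was not tested. The count of members called at 1500 ppm, 1 as reported, was 0 with normexp, with slide as a fixed block, with the filter on all 24 arrays (which removes Slc9b2) or by adjusted p, and 3 without a filter. At 1000 ppm it was 1 without scaling or without a filter, and 0 to 1 with 1 rat left out (rats 7 and 11). At 600 ppm it was 0 to 1 with 1 rat left out (rat 7). Without a filter, Slc9a2 and Asic2 enter these counts at levels mostly not well above background. All genes called without a filter numbered 558 at 1000 ppm and 478 at 1500 ppm. As Slc9a2, Asic2 and Slc9b2 had been picked with these samples in view, nothing is read from the counts without a filter.

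Uncalled differences turned sign as follows. Scnn1a at 1500 ppm was 0.05 with array weights. Scnn1b at 1500 ppm was -0.01 without scaling, -0.16 with slide as a fixed block and -0.01 to 0.15 with 1 rat left out. Atp1b1 at 1500 ppm was 0.07 with normexp, 0.24 with array weights and -0.17 to 0.04 with 1 rat left out. Cftr at 1000 ppm was 0.00 with quantile normalization, -0.19 and -0.06 with slide as a fixed and a random block, -0.01 with array weights, -0.11 on the dim probe and -0.08 to 0.08 with 1 rat left out.

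The difference of Scnn1a between 1500 and 600 ppm, recomputed by choices made after seeing the data, passed 1.5-fold with median scaling (-0.60), without scaling (-0.72) and with slide as a fixed (-0.66) or random block (-0.62), and was -0.63 to -0.51 with 1 rat left out. The sex difference of Atp1b1 was 0.63 to 0.69 with 1 rat left out. That of Scnn1a lost its adjusted call with normexp (0.26) and quantile normalization (0.22), and was 0.18 to 0.27 with 1 rat left out; the call held without rat 8, 13, 23, 26, 32 or 33. No alternative gave a member an interaction of sex and dose or a dose trend at an adjusted p under 0.05.

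Pathway genes called against control, 0 as reported, numbered 1 at 600 ppm without scaling, without a filter, with the filter on all 24 arrays, with sex as a covariate and with either slide block, 2 with array weights, and 0 to 1 with 1 rat left out. At 1000 ppm they numbered 1 with normexp, quantile normalization, median scaling, no scaling, control and 1 dose only, or sex as a covariate, 2 with array weights, and 0 to 2 with 1 rat left out. At 1500 ppm they numbered 1 with normexp, control and 1 dose only or each probe tested, 2 with sex as a covariate, and 0 to 2 with 1 rat left out. All genes called numbered 129, 347 and 262 in order of dose, and 41 to 583, 210 to 569 and 106 to 478 over the alternatives that kept this rule for a call.

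The correlation of Scnn1a and Atp1b1 did not pass the adjustment within males (0.64). Scnn1a turned to -0.25 with Scnn1b and -0.27 with Scnn1g within males, Scnn1b to -0.15 with Atp1b1 within males, and Scnn1g with Atp1b1 from -0.24 to 0.51 within females and 0.27 after centring. Levels of Slc9a2, Asic2 and both Slc9b2 probes lie near the background, which limits any difference given for them.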

Other observations

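Between the sexes, over all 24 rats with dose as a covariate, 9 of the 59 other pathway genes were higher in males and 7 lower at an adjusted limma p under 0.05, beside 24.8% of all genes tested; sex and slide cannot be told apart. Among those higher in males were the water channels Aqp1 (log2 difference 0.49, SE 0.14, adjusted p 0.0146) and Aqp5 (0.45, SE 0.11, adjusted p 0.00402), whereas Aqp3 (-0.65, SE 0.48, adjusted p 0.342) and Aqp4 (-0.25, SE 0.14, adjusted p 0.204) did not pass. Also higher were the glucocorticoid-induced Tsc22d3 (0.47, SE 0.11, adjusted p 0.00349), the anion exchanger Slc4a1 of red blood cells (0.85, SE 0.26, adjusted p 0.0208) and the scaffold Nherf2 (0.73, SE 0.16, adjusted p 0.00204). Among those lower in males were the kinase Wnk4 (-0.46, SE 0.10, adjusted p 0.00205) and the potassium channel Kcnma1 (-0.63, SE 0.19, adjusted p 0.02). These genes were named after their values were seen.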
